A study of Homo sapiens with 10 samples.

Results

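SK-N-SH cells, an adherent neuroblastoma line, were transfected with a plasmid for PcTF and compared with mock-transfected cells of the same line by RNA-seq. PcTF is a synthetic regulator in which the chromodomain of CBX8, which recognises histone H3 trimethylated at lysine 27, is joined to a red fluorescent protein and a transcriptional activation domain. The PcTF-transfected group (n = 1 library) received 2 µg of plasmid in a lipid reagent and the mock group (n = 1 library) received the vehicle without plasmid. No other allele, transgene or drug is given for either group, and the cells were grown for up to 96 h afterwards. Transfection was transient. The study reports that a minority of SK-N-SH cells fluoresced red at its first time point, and fewer at each later one. No sorting for plasmid-bearing cells is described, so each value averages over cells with and without PcTF, and most may have lacked visible PcTF. In such bulk RNA, fewer cells of a type and less RNA per cell cannot be told apart, nor can the effect of PcTF and that of taking up plasmid DNA, which the mock cells did not do.

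The 2 libraries are part of a series of 10. Levels were deposited as FPKM, read fragments scaled to transcript length and to library depth, for 23245 genes. Of these, 11954 genes had 1 FPKM or more in either SK-N-SH library and were the genes compared. The PcTF value of 3 genes, MSH3 and MTRNR2L2 among them, was a failed estimate, and the remaining 11951 genes were used. A difference is given as log2 of the PcTF over the mock FPKM after adding 0.1 FPKM to both, and a gene was counted as 2-fold higher or lower where this reached 1 or -1. The step between low FPKM values, which is 1 read, put the depth near 5.19e+06 reads for mock and 6.38e+06 reads for PcTF. This step and the transcript length gave an estimated number of reads behind each value and an exact 95% binomial interval on the log2 ratio. Reads are approximate and the interval covers counting error only. Where a pair of values is given, mock comes first and PcTF second. With 1 library a side there is no replicate error and no test, so the values below describe these libraries.

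The tissue of origin was visible in both libraries. Sympathoblast genes were well detected, among them the transcription factors HAND2 (35.6 FPKM in mock cells and 26.4 FPKM in PcTF cells) and GATA3 (14.8 FPKM in mock cells and 14 FPKM in PcTF cells), and STMN2, a neuronal microtubule regulator (455 FPKM in mock cells and 456 FPKM in PcTF cells). Dopamine beta-hydroxylase, DBH, had 21.8 and 20.1 FPKM, while tyrosine hydroxylase, TH, which defines catecholamine synthesis, was listed at 0 in both. Mesenchymal genes were high as well, with VIM at 1909.9 and 1655 FPKM, FN1 at 419 and 458 FPKM and PRRX1 at 389 and 448 FPKM for mock and PcTF. The haematopoietic markers CD14 and CD3E, the erythroid markers HBG1 and GATA1, and the Schwann factor SOX10 were listed at 0 in both libraries. Leukocyte PTPRC had 0.075 and 0.168 FPKM. A set of 210 genes was placed by the authors' annotation on alternative contigs of chromosome 6, and 207 of them were listed at 0 in both libraries. These include HLA-B, TAP1, TNF and genes that every cell uses, such as RPS18 and BAG6, so their zeros carry no information on expression.

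Polycomb group proteins keep developmental genes silent. PRC2 places the H3K27 methyl mark and PRC1 binds it through chromodomain subunits such as CBX8. Among genes other than small RNAs, many of the largest positive differences between the SK-N-SH libraries lay in 2 pathways of innate immunity. In the interferon pathway, sensors of foreign RNA or DNA such as RIG-I (DDX58) and MDA5 (IFIH1) induce interferon, whose receptors signal through JAK kinases to STAT factors and IRF9. Their complex binds the interferon-stimulated response element (ISRE) at antiviral genes. NF-kB, in turn, is held in the cytoplasm by inhibitors such as NFKBIA until a stimulus releases it to induce cytokines, chemokines and its own inhibitors.

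Promoter sequences of RefSeq (GRCh38.p14, 250 bases before to 50 bases after the start) were searched on both strands for the letters GAAANNGAA, the core of the ISRE, and GGAANNTCC, a core of NF-kB sites. A match on the other strand reads TTCNNTTTC or GGANNTTCC. Matches of both motifs overlapped in 13 of 27305 promoters. Windows of the 6 interferon list genes with the largest difference and a match before the start are shown first, then those of 6 inflammatory genes chosen alike. Genes with large differences but no match wholly before the start were passed over, among them MX1, whose promoter held 2 matches. The windows thus show the form of each element and not how common it is. Each runs 5′ to 3′ on the strand of the gene and capitals mark the match. The ISRE windows lie at chr14:94110611-94110679 (plus strand) for IFI27, chr1:27672247-27672315 (minus strand) for IFI6, chr2:6865776-6865844 (plus strand) for RSAD2, chr1:78620345-78620413 (plus strand) for IFI44L, chr11:313970-314038 (plus strand) for IFITM1 and chr19:17405716-17405784 (minus strand) for BST2, and each match lies before the annotated start.
IFI27: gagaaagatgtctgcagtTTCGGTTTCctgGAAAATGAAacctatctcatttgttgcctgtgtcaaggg
IFI6: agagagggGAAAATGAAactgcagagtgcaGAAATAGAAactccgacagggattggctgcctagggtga
RSAD2: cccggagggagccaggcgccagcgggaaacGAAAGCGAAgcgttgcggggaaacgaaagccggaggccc
IFI44L: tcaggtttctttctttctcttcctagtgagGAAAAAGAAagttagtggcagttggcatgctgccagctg
IFITM1: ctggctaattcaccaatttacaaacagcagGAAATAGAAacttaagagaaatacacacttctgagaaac
BST2: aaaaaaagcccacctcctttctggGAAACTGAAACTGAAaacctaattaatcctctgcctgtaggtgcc

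The NF-kB windows lie at chr5:132073657-132073725 (plus strand) for CSF2, chr4:73740448-73740516 (plus strand) for IL8 (CXCL8 in RefSeq), chr4:74099234-74099302 (minus strand) for CXCL2, chr4:73836559-73836627 (plus strand) for CXCL6, chr7:22727098-22727166 (plus strand) for IL6 and chr4:76023635-76023703 (minus strand) for CXCL10.
CSF2: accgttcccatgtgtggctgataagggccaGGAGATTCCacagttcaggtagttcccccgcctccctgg
IL8: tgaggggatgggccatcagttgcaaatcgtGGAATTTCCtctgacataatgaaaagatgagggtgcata
CXCL2: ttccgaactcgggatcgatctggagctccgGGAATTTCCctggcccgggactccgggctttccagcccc
CXCL6: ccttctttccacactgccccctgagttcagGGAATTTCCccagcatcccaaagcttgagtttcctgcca
IL6: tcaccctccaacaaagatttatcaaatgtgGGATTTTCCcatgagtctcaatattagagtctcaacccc
CXCL10: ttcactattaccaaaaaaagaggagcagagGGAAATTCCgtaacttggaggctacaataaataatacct

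The ISRE letters were found in 8.29% of all 27305 promoters and in 6.51% of those of the genes used, small RNAs left out. Of the 2-fold higher interferon list genes, 28 of the 43 promoters at hand (65.1%) held them, and 4 of 17 of those within 2-fold. Among inflammatory list genes they were in 6 of 31 promoters (19.4%) of higher genes and in 3 of 14 of those within 2-fold. The NF-kB letters were found in 4.59% of all promoters and in 4.58% of those of the genes used. They were in 14 of 31 promoters (45.2%) of the 2-fold higher inflammatory genes and in 1 of 14 of those within 2-fold. Among interferon list genes they were in 5 of 43 and 0 of 17. The lists were written with earlier results known and split by the same differences, so these shares test nothing. Over all 2-fold higher genes other than small RNAs, 56 of 413 promoters (13.6%) held the ISRE letters and 38 (9.20%) the NF-kB letters, while 6 and 9 of 154 promoters of 2-fold lower genes did. XAF1, CMPK2 and DDX58, which were among the interferon genes with large differences, had no ISRE match in this window. Among inflammatory genes, IL1B, CCL20, CCL7, SOD2, ZC3H12A and IL1A had larger differences than CXCL10 but no NF-kB match. OAS2 and MX2 had no promoter in the table.

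CBX8 was the check on the transfected gene, since reads of the PcTF chromodomain can be counted with those of the native gene. It had 0.287 FPKM in mock cells and 8.85 FPKM in PcTF cells, a log2 difference of 4.53. The estimate was about 5 and 201 reads, with a counting interval of 3.78 to 6.67. The transcript length used, 3752 bases, is longer than its deposited locus, so these reads are too high and the interval too narrow. Its transcript was thus near the floor in mock cells and plain in the PcTF library. The control genes of the study were all within 2-fold, with GAPDH at 599 and 869.5 FPKM, ACTB at 665 and 673 FPKM and CHMP2A at 110.1 and 135 FPKM for mock and PcTF. Among the other PRC1 subunits 1 of 17 with 1 FPKM or more was 2-fold higher and 0 were lower, around a median difference of -0.02. The member was BMI1 (2.11 FPKM in mock cells and 8.68 FPKM in PcTF cells), a ring-finger partner of RING1 proteins. Its exons also belong to the annotated readthrough gene COMMD3-BMI1 (21.5 and 14 FPKM), so its value is uncertain. PRC2 subunits behaved alike, with 1 of 10 2-fold higher. PHF19, a reader that recruits PRC2, had 3.16 FPKM in mock cells and 7.95 FPKM in PcTF cells, whereas the methyltransferase EZH2 had 19.4 and 18.1 FPKM and SUZ12 19.8 and 22.8 FPKM.

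The study followed a panel of 14 polycomb-associated genes by qRT-PCR at earlier times, with values scaled to plasmid expression. It reports IRF8, CADM1 and RUNX3 as activated in all 3 cell lines, and CASZ1 as upregulated in all 3 by RNA-seq. The values here are unscaled FPKM of 1 library a side with a filter at 1 FPKM, so the measures differ. In SK-N-SH, 5 of them (CDH1, HOXA6, HOXB4, IRF8 and RUNX3) were listed at 0 in both libraries, and CASZ1 (0.0498 and 0.236 FPKM) and WT1 (0.0849 and 0.0703 FPKM) stayed below 1 FPKM. Of the 7 with 1 FPKM or more, 1 was 2-fold higher and 1 was 2-fold lower. ATF3, a stress-induced transcription factor, had 0.112 FPKM in mock cells and 1.36 FPKM in PcTF cells. CDKN2A, which encodes the cell cycle inhibitor p16, had 3.25 FPKM in mock cells and 0.99 FPKM in PcTF cells, about 13 and 5 reads, with an interval of -3.52 to -0.10. The others lay within 2-fold, namely LAMB3 (2.16 and 3.67 FPKM), TRIM22 (15.4 and 22.9 FPKM), CADM1 (26.8 and 24.4 FPKM), HK2 (4.91 and 4.15 FPKM) and CLU (22.1 and 15.2 FPKM).

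Across all genes used, 692 (5.79%) were 2-fold higher with PcTF and 319 (2.67%) were 2-fold lower, and the median difference was 0.10. These percentages are the background against which each list is read below. Small RNA genes, whose short lengths turn few reads into very high FPKM, made up 101 of the higher and 83 of the lower genes, so 591 and 236 longer genes remained. Of the 591, 34 were listed at 0 in mock. Of the 11951 genes used, 78 belonged to the interferon lists and 65 to the inflammatory lists. These lists held 94 of the 591, and their share grew with the size of the difference. They were written with earlier results of these data known, so the shares describe the libraries and test nothing. They held 50 of the 155 longer genes with a log2 difference of 2 or more, 32 of 79 with 3 or more, 20 of 34 with 4 or more and 13 of 19 with 5 or more.

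**Figure D1:**
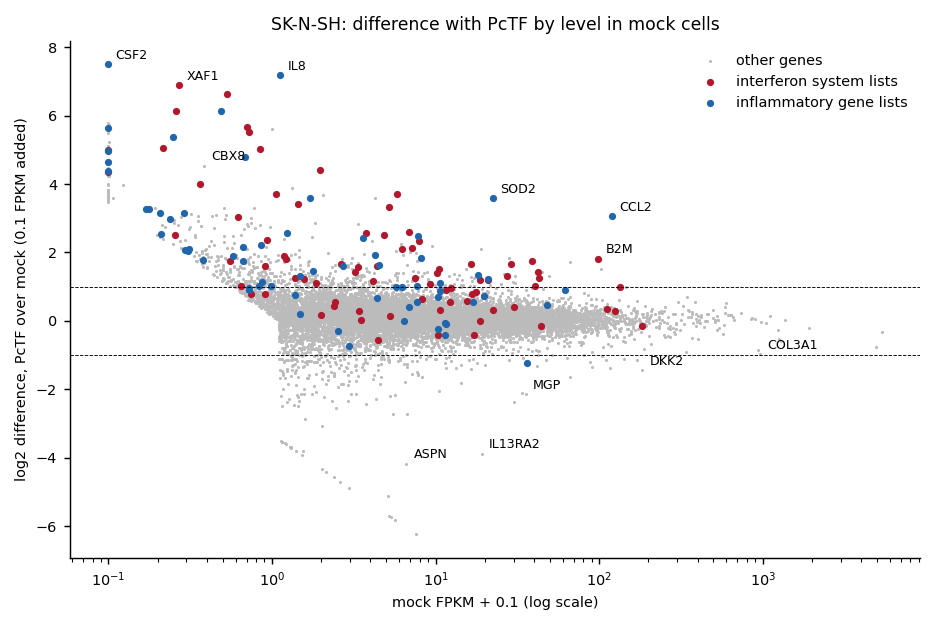
Each point is a gene with 1 FPKM or more in either SK-N-SH library, small RNA genes left out, with the mock FPKM plus 0.1 on a log x axis and the log2 difference of PcTF over mock on the y axis. Dashed lines mark 2-fold. Red and blue points, the interferon and inflammatory lists, lie above 0 for most genes, and CSF2, IL8 and XAF1 are highest, while ASPN and IL13RA2 are among the lowest.

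The share of 2-fold different genes varied with the level in mock cells. Of longer genes listed at 0 in mock, 34 of 6282 were 2-fold higher, 7 of them interferon or inflammatory list members. Above 0 and up to 1 FPKM the figures were 272 of 4169 (6.52%) and 35. These totals include genes below the filter. Lower calls were 0 in both bins, since the filter asks for 1 FPKM or more in either library. Among longer genes with 1 to 5 FPKM in mock, 192 of 3854 (4.98%, exact 95% interval 4.32% to 5.72%) were 2-fold higher and 167 (4.33%) were 2-fold lower. At 20 to 100 FPKM the shares were 20 of 2612 (0.766%) and 13 (0.498%). The interval covers the counting of genes only. Interferon and inflammatory list members were 10 of the 20 higher genes in that bin, and 1 of the 13 lower genes. Above 100 FPKM, 2 of 334 genes were higher and 7 were lower, and 1 of the higher genes, CCL2, belonged to these lists.

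The sensors stood at the head of the interferon pathway. Of 11 nucleic acid sensors with 1 FPKM or more, 6 were 2-fold higher and 0 lower, with a median of 1.25. IFIH1, which senses long double-stranded RNA, had 4.72 FPKM in mock cells and 27.6 FPKM in PcTF cells (log2 difference 2.52, interval 2.21 to 2.89). DDX58, which senses RNA with a 5′ triphosphate, had 7.86 FPKM in mock cells and 40 FPKM in PcTF cells (2.33, interval 2.12 to 2.58). AIM2, a sensor of cytosolic DNA that assembles an inflammasome, had 2.55 FPKM in mock cells and 8.3 FPKM in PcTF cells. Both RNA and DNA sensors were thus among the higher genes. EIF2AK2, the kinase PKR, had 43.1 FPKM in mock cells and 104 FPKM in PcTF cells, and endosomal TLR3 had 1.29 FPKM in mock cells and 3.2 FPKM in PcTF cells. The adaptors that carry the signal onward lay within 2-fold, MAVS with 5.18 and 5.78 FPKM and STING (TMEM173) with 17 and 12.8 FPKM. MB21D1, the DNA sensor cGAS, and ZBP1 were listed at 0 in both.

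No interferon gene reached 1 FPKM. Of 9 interferon ligand genes 7 were listed at 0 in both libraries, IFNB1 and IFNG among them, and IFNA1 (0 and 0.237 FPKM) and IFNK (0.205 and 0.167 FPKM) stayed below 1 FPKM. The receptors and JAK kinases were all detected apart from IL28RA (0.182 and 0.148 FPKM), and 1 of 8 was 2-fold higher. This was IFNGR2, a chain of the interferon gamma receptor, with 13.4 FPKM in mock cells and 31.5 FPKM in PcTF cells. The type I receptor chains were level, IFNAR1 with 17.5 and 18.2 FPKM and IFNAR2 with 11.7 and 12.1 FPKM, as was JAK1 with 56.2 and 57.9 FPKM. Downstream, 4 of 9 IRF and STAT factors were 2-fold higher. IRF9, a part of the ISRE-binding complex, had 4.05 FPKM in mock cells and 9.12 FPKM in PcTF cells, while STAT2, another part, had 8.19 FPKM in mock cells and 12.8 FPKM in PcTF cells and stayed within 2-fold. IRF1 had 1.09 FPKM in mock cells and 4.34 FPKM in PcTF cells and IRF7, the amplifier of type I interferon genes, 0.458 FPKM in mock cells and 1.77 FPKM in PcTF cells. IRF3 and STAT3, which act before or beside this loop, had 4.33 and 2.93 FPKM and 22.3 and 28.1 FPKM. Among the SOCS feedback inhibitors and related genes 0 of 4 was 2-fold higher or lower, with SOCS3 at 2.51 and 4.08 FPKM, and USP18 stayed below 1 FPKM (0.105 and 0.427 FPKM).

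The antiviral effectors follow. All 7 of 7 OAS and IFIT genes with 1 FPKM or more were 2-fold higher, with a median of 2.56. OAS2, a synthetase of the second messenger 2′,5′-oligoadenylate, had 0.158 FPKM in mock cells and 18.1 FPKM in PcTF cells (about 4 and 511 reads), and its neighbours OAS1 and OAS3 had 7.07 and 31.1 FPKM and 6.74 and 41.2 FPKM. IFIT1, which binds viral RNA caps, had 5.11 FPKM in mock cells and 51.9 FPKM in PcTF cells (interval 3.06 to 3.64). OASL stayed below 1 FPKM (0 and 0.685 FPKM). Of the MX and IFI genes 12 of 15 were 2-fold higher. The median was 4.35, or 3.71 with the genes listed at 0 in mock held at a floor of 3 reads. MX1, a GTPase that blocks nucleocapsids, had 0.625 FPKM in mock cells and 32.9 FPKM in PcTF cells (about 8 and 540 reads, log2 difference 5.51). MX2 and IFI35 were listed at 0 in mock and had 3.12 and 1.94 FPKM with PcTF. IFI44L had 0.746 FPKM in mock cells and 27.7 FPKM in PcTF cells and IFI44 5.69 FPKM in mock cells and 75 FPKM in PcTF cells.

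Members of 1 family differed among themselves. The membrane proteins IFITM1 and IFITM3, which restrict viral entry, had 1.87 and 41.7 FPKM and 42.3 and 115 FPKM in mock and PcTF, whereas IFITM2 had 18.6 and 18.4 FPKM. Likewise IFI27 had 0.433 and 52.3 FPKM, its relatives IFI27L1 3.31 and 4.03 FPKM and IFI27L2 10.2 and 7.73 FPKM. Reads of such close relatives may be divided between them by the authors' counting. Among restriction factors 8 of 12 were 2-fold higher, led by RSAD2 (viperin, 0.116 FPKM in mock cells and 7.04 FPKM in PcTF cells) and BST2 (tetherin, 0.262 FPKM in mock cells and 5.74 FPKM in PcTF cells). SAMD9 and SAMD9L, neighbours on chromosome 7, had 27.3 and 68.5 FPKM and 16.5 and 52.4 FPKM. TRIM5 and ZC3HAV1, restriction factors of retroviruses, stayed within 2-fold with 12.2 and 18.1 FPKM and 30.2 and 39.7 FPKM.

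ISG15 is a ubiquitin-like protein that is attached to other proteins. ISG15 itself had 0.833 FPKM in mock cells and 4.74 FPKM in PcTF cells, about 2 and 13 reads, with a wide interval of 0.26 to 5.59. Its ligase HERC5 had 0.523 FPKM in mock cells and 5.01 FPKM in PcTF cells and HERC6 1.34 FPKM in mock cells and 15.4 FPKM in PcTF cells. The E1 and E2 enzymes of the same cascade, UBA7 and UBE2L6, lay within 2-fold with 0.804 and 1.46 FPKM and 16.6 and 28.5 FPKM. Guanylate-binding proteins and interferon-linked PARP genes were 2-fold higher in 6 of 8, among them PARP14 (28.8 FPKM in mock cells and 91.9 FPKM in PcTF cells), PARP9 (18.6 FPKM in mock cells and 42.6 FPKM in PcTF cells) and DTX3L (10.5 FPKM in mock cells and 30.4 FPKM in PcTF cells), which lie next to each other on chromosome 3. In the class I antigen presentation list, 5 of 11 were 2-fold higher. B2M, the light chain of class I molecules, had 99 FPKM in mock cells and 348 FPKM in PcTF cells (interval 1.65 to 1.98), the immunoproteasome subunit PSMB10 had 4.32 FPKM in mock cells and 13.3 FPKM in PcTF cells and the proteasome activator subunit PSME2 10.2 FPKM in mock cells and 27 FPKM in PcTF cells. For class II, CIITA was listed at 0 and CD74 had 0.175 and 0.142 FPKM.

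**Figure D2:**
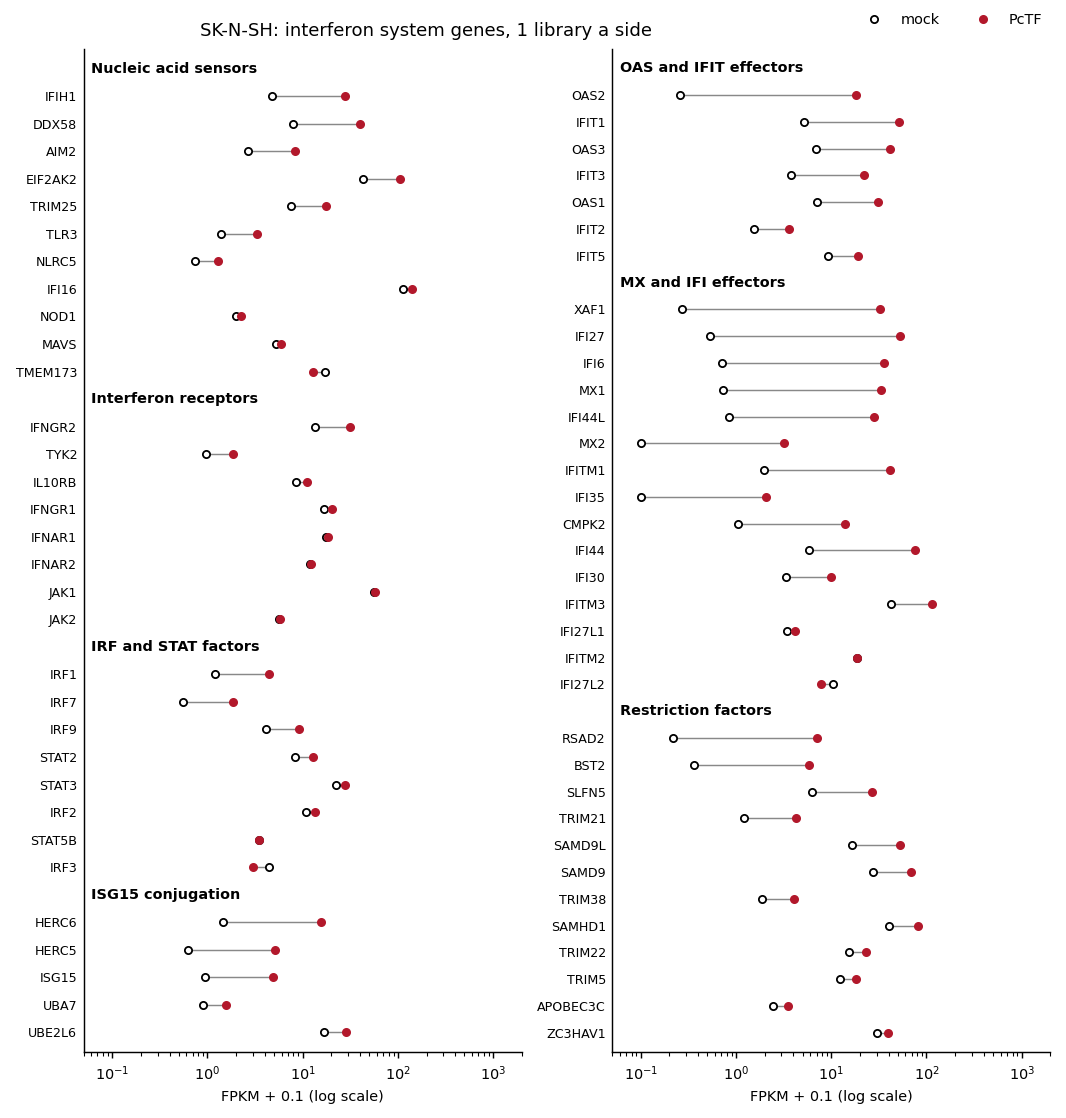
Dumbbells give the FPKM plus 0.1 on a log axis in mock (open) and PcTF (red) SK-N-SH cells for the members reported by name with 1 FPKM or more, grouped by role and ordered by difference, 1 library a side. OAS2, XAF1, IFI27 and MX1 run from below 1 FPKM to over 10 FPKM, while JAK1, IFNAR1, IFITM2 and STAT5B have nearly the same level in both.

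Inflammatory genes formed the other block, with 43 of 65 list members 2-fold higher and 1 lower, against 51 of 78 higher and 0 lower for the interferon lists. Chemokines are secreted proteins that attract leukocytes. Those that attract neutrophils were IL8 (1.03 FPKM in mock cells and 163 FPKM in PcTF cells, about 8 and 1500 reads, interval 6.27 to 8.47), CXCL2 (0.385 FPKM in mock cells and 34.1 FPKM in PcTF cells) and CXCL6, which was listed at 0 in mock and had 3.01 FPKM. All 3 were above the level of their mock library by more than counting error. CXCL1 (0 and 0.81 FPKM) and CXCL5 (0 and 0.208 FPKM), of the same cluster on chromosome 4, stayed below 1 FPKM. T-cell chemokines were 2-fold higher in 4 of 5, with CXCL10 at 0.19 FPKM in mock cells and 2.47 FPKM in PcTF cells and CXCL11 at 0.138 FPKM in mock cells and 1.79 FPKM in PcTF cells. Their relative CXCL9 had 0 and 0.0668 FPKM. The monocyte attractant CCL2 was abundant in mock cells already and had 120.4 FPKM in mock cells and 1003 FPKM in PcTF cells (log2 difference 3.06, interval 2.90 to 3.22), which made it 1 of the 2 genes above 100 FPKM in mock that were 2-fold higher. CCL7, its neighbour on chromosome 17, had 1.6 FPKM in mock cells and 20.5 FPKM in PcTF cells, and CCL20 was listed at 0 in mock and had 1.97 FPKM.

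Of 10 interleukins and colony-stimulating factors with 1 FPKM or more, 8 were 2-fold higher. CSF2, the granulocyte-macrophage colony-stimulating factor, was listed at 0 in mock and had 18 FPKM with PcTF, about 68 reads, which puts the log2 ratio above 3.87 by counting. IL6 had 0.589 FPKM in mock cells and 19.1 FPKM in PcTF cells and IL1B 0.149 FPKM in mock cells and 10.3 FPKM in PcTF cells. IL1A had 0.0706 FPKM in mock cells and 1.55 FPKM in PcTF cells, with about 1 and 18 reads. IL15, which sustains natural killer cells, had 0.107 FPKM in mock cells and 1.74 FPKM in PcTF cells and IL32 1.14 FPKM in mock cells and 7.23 FPKM in PcTF cells. IL7 was level with 6.32 and 6.27 FPKM. CSF1 had 2.61 FPKM in mock cells and 8.06 FPKM in PcTF cells, and CSF3, IL1RN and IL33 were listed at 0 in both.

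Of the NF-kB factors themselves 2 of 4 were 2-fold higher. NFKB1 had 10.6 FPKM in mock cells and 23.1 FPKM in PcTF cells and NFKB2 0.474 FPKM in mock cells and 2.04 FPKM in PcTF cells, RELA 7.6 FPKM in mock cells and 11.3 FPKM in PcTF cells and REL 4.27 FPKM in mock cells and 6.81 FPKM in PcTF cells. Genes of the NF-kB feedback list, not all of them inhibitors, were 2-fold higher in 8 of 11, with a median of 1.79. NFKBIA had 8.04 FPKM in mock cells and 29.1 FPKM in PcTF cells, NFKBIZ 4.2 FPKM in mock cells and 16.1 FPKM in PcTF cells and BIRC3, which restrains cell death below the TNF receptor, 3.52 FPKM in mock cells and 19.4 FPKM in PcTF cells (interval 2.19 to 2.75). ZC3H12A, an RNase that degrades cytokine transcripts, had 0.0766 FPKM in mock cells and 1.62 FPKM in PcTF cells. TNFAIP3, the ubiquitin editor A20, stayed below the filter with 0 and 0.703 FPKM. Of the other targets 6 of 10 were 2-fold higher. SOD2, mitochondrial superoxide dismutase, had 22.3 FPKM in mock cells and 268 FPKM in PcTF cells, a log2 difference of 3.58. Its reads and interval are not given. The transcript length used for them, 14167 bases, is nearly that of its whole deposited locus, introns included. ICAM1, a leukocyte adhesion receptor, had 7.71 FPKM in mock cells and 43.9 FPKM in PcTF cells, whereas VCAM1 had 48.2 FPKM in mock cells and 66.4 FPKM in PcTF cells and stayed within 2-fold. PTGS2, the inducible cyclooxygenase, had 18 FPKM in mock cells and 45.7 FPKM in PcTF cells.

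The TNF superfamily had fewer calls, with 3 of 10 2-fold higher. TNFRSF9 had 0.565 FPKM in mock cells and 2.89 FPKM in PcTF cells, TNFRSF12A, the receptor of TWEAK, 1.39 FPKM in mock cells and 3.59 FPKM in PcTF cells, and the death ligand TNFSF10 (TRAIL) 0.734 FPKM in mock cells and 1.61 FPKM in PcTF cells. The TRAIL receptor TNFRSF10B stayed within 2-fold with 19.6 and 32.7 FPKM, and TNFRSF1A, the main TNF receptor, was level with 11.3 and 10.8 FPKM. TNF, LTA and LTB are on chromosome 6 contigs and have no usable value. Acute phase and complement genes were 2-fold higher in 6 of 10 and lower in 1. Complement C3 was listed at 0 in mock and had 4.85 FPKM with PcTF (about 156 reads). SAA1, an acute phase apolipoprotein, was listed at 0 and had 2.4 FPKM. The initiating proteases C1R and C1S, neighbours on chromosome 12, had 1.68 and 4.78 FPKM and 4.43 and 14 FPKM. CFI, the protease that inactivates C3b, was lower, with 36.3 FPKM in mock cells and 15.3 FPKM in PcTF cells (log2 difference -1.24, interval -1.52 to -0.98).

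**Figure D3:**
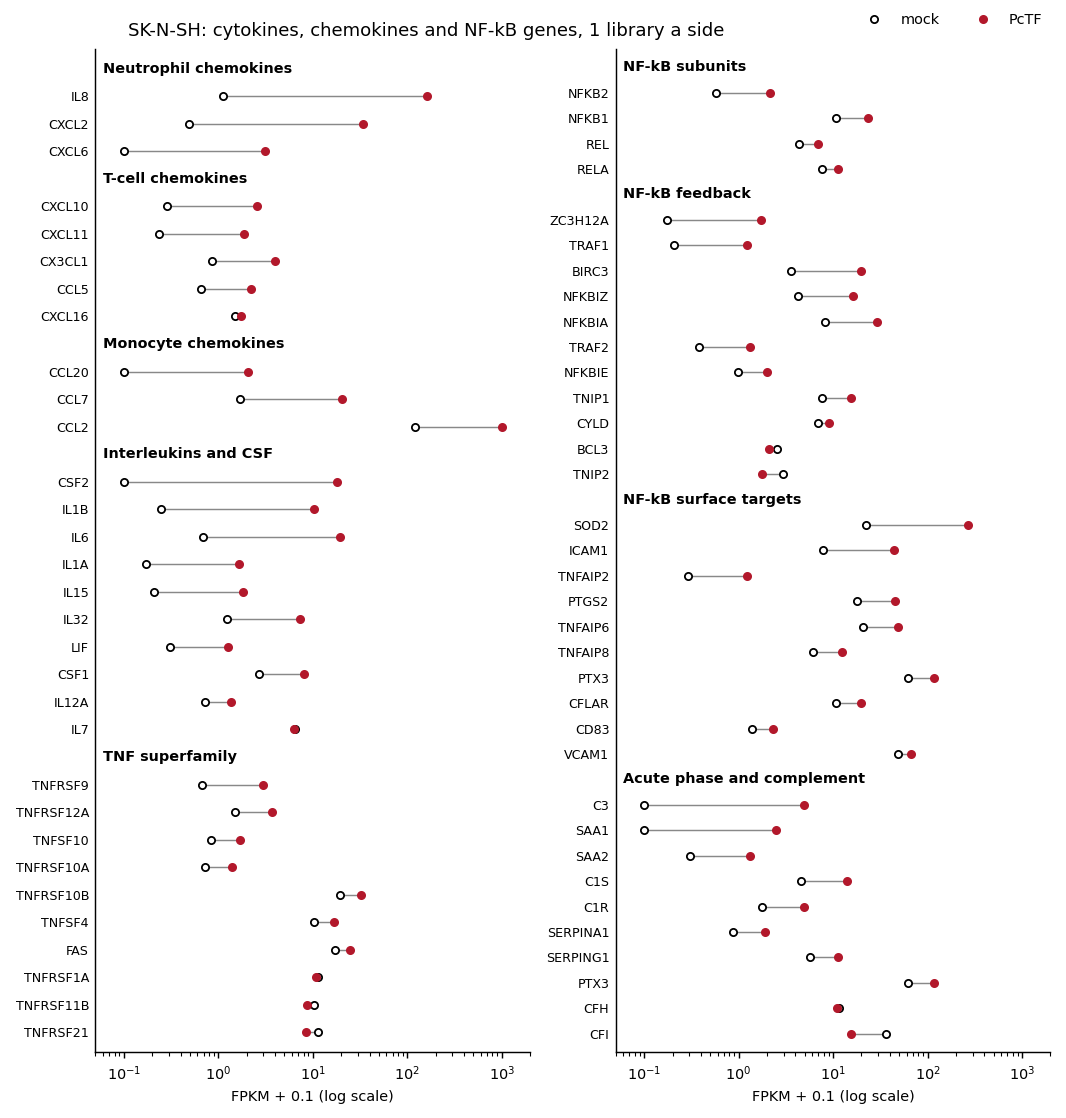
The same plot for chemokines, interleukins, the TNF superfamily, NF-kB genes and acute phase genes in SK-N-SH cells, with FPKM plus 0.1 on a log axis, mock open and PcTF red. IL8 and CSF2 span the longest distances, and CFI is the 1 member that is 2-fold lower.

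In the apoptosis and pyroptosis list 5 of 20 were 2-fold higher and 0 lower. CASP1, the protease that matures IL1B, was listed at 0 in mock and had 2.98 FPKM with PcTF, about 34 reads. CASP4, which responds to intracellular lipopolysaccharide, had 2.24 FPKM in mock cells and 6.87 FPKM in PcTF cells. MLKL, the executor of necroptosis, had 0.752 FPKM in mock cells and 2.78 FPKM in PcTF cells, and RIPK2, the kinase below NOD receptors, 16.6 FPKM in mock cells and 37.8 FPKM in PcTF cells. CASP8, which starts apoptosis below death receptors, was level (4.39 and 4.27 FPKM), and so was the survival factor MCL1 (36.5 and 34.9 FPKM).

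Proteases and their inhibitors were the part of the matrix lists with the most calls. In the matrix metalloproteinase and TIMP list 5 of 15 were 2-fold higher and 1 lower. MMP1, interstitial collagenase, had 0.906 FPKM in mock cells and 49.3 FPKM in PcTF cells (about 8 and 557 reads), and MMP3 and MMP12, its neighbours on chromosome 11, 6.04 and 29 FPKM and 1.04 and 2.34 FPKM. The membrane protease MMP14 had 3.52 FPKM in mock cells and 9.14 FPKM in PcTF cells. MMP2, the most abundant member, was level with 196 and 222 FPKM, as were TIMP1 (75.1 and 86.7 FPKM) and TIMP2 (127 and 143 FPKM). ADAMTS5, an aggrecanase, was lower with 8.11 FPKM in mock cells and 2.51 FPKM in PcTF cells (interval -1.97 to -1.42). The plasminogen system had 4 of 7 2-fold higher. The urokinase receptor PLAUR had 7.53 FPKM in mock cells and 30 FPKM in PcTF cells and urokinase PLAU 14.7 FPKM in mock cells and 30.7 FPKM in PcTF cells, so an activator and its receptor were both among them. Tissue plasminogen activator, PLAT, had 105 FPKM in mock cells and 62.3 FPKM in PcTF cells, and SERPINE2 77.1 FPKM in mock cells and 50.2 FPKM in PcTF cells.

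Structural matrix genes mostly lay within 2-fold on both sides of 0. All 4 fibrillar collagens with 1 FPKM or more had negative differences, with a median of -0.69 and none 2-fold lower. They ranged from COL1A1 (441 and 386 FPKM) through COL5A1 (9.86 and 6.25 FPKM) and COL5A2 (12.1 and 7.25 FPKM) to COL3A1 (971 and 494 FPKM, interval -1.0 to -0.95). COL1A2, the partner chain of COL1A1, was listed at only 0.259 and 0.721 FPKM. Of the other collagens 2 of 9 were 2-fold higher and 1 lower, with a median of 0.51. The higher ones were COL6A3 (6.26 and 24 FPKM) and COL15A1 (0.607 and 1.36 FPKM), and COL8A1 was lower (5.11 and 2.26 FPKM, interval -1.59 to -0.76), while the basement membrane chains COL4A1 (20.7 and 33.4 FPKM) and COL4A2 (7.05 and 13.4 FPKM) lay within 2-fold. Matrix glycoproteins were 2-fold higher in 2 of 20 and lower in 1, around a median of 0.07. The higher ones were the crosslinking enzymes LOX (24.9 and 52.5 FPKM) and LOXL1 (1.74 and 4.49 FPKM). MGP, an inhibitor of calcification, was lower with 35.6 FPKM in mock cells and 7.99 FPKM in PcTF cells (about 268 and 74 reads, interval -2.55 to -1.78). VCAN, a large proteoglycan, had 342 FPKM in mock cells and 183 FPKM in PcTF cells and SPARC 207 FPKM in mock cells and 129 FPKM in PcTF cells, both within 2-fold but outside counting error, while FN1 and POSTN (457 and 523 FPKM) stayed within 2-fold.

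Neuroblastoma cells occupy a noradrenergic or a mesenchymal state, each with its own transcription factors. Neither list had many calls. Of 35 noradrenergic genes 0 were 2-fold higher and 1 lower (median -0.09), and of 35 mesenchymal genes 2 were higher and 1 lower (median 0.19). The mesenchymal shares and the noradrenergic lower share lay close to the background, and the noradrenergic higher share lay below it. Within 2-fold the lists leaned apart. The counting interval lay above 0 for 5 and below 0 for 12 noradrenergic genes, and for 20 and 7 mesenchymal genes. The noradrenergic member was SLC18A1, a vesicular monoamine transporter, with 4.68 FPKM in mock cells and 2.27 FPKM in PcTF cells. The receptor kinase ALK had 4.76 and 2.81 FPKM, while NPY, a sympathetic neuropeptide, had 35.7 FPKM in mock cells and 67.2 FPKM in PcTF cells. MYCN stayed below 1 FPKM in both (0.961 and 0.13 FPKM). On the mesenchymal side FOSL1 (8.15 and 20.4 FPKM) and FOSL2 (1.27 and 3.05 FPKM), which also belong to AP-1, were 2-fold higher and TAGLN (3.62 and 1.64 FPKM) was lower. CD44 had 104 and 159 FPKM, NT5E 347 and 560.5 FPKM and PDGFRA 77.9 and 47.7 FPKM. Of the synaptic and ion channel genes 0 of 29 were higher and 1 lower, CNTNAP2, a neurexin family adhesion protein, with 20.1 FPKM in mock cells and 8.07 FPKM in PcTF cells (interval -1.47 to -1.15). Of the Schwann and glial list 0 of 4 were higher and 2 lower (median -0.55), among them S100B (3.1 and 1.18 FPKM).

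Developmental regulators are the textbook targets of polycomb. In the list of 110 developmental factors 49 were listed at 0 in both libraries and 16 reached 1 FPKM. Of these 2 were 2-fold higher, the T-box factor TBX20 (2.17 and 4.46 FPKM) and the homeobox factor MSX2 (2.21 and 4.52 FPKM), and 2 were lower, among them LHX9 (2.77 and 1.0 FPKM). MEIS2 (135 and 109 FPKM) and SOX4 (36.7 and 24.8 FPKM), the most abundant members, stayed within 2-fold. Of 39 HOX genes 21 were at 0 in both and 5 reached 1 FPKM, none of them 2-fold different. Their differences were all below 0, from -0.09 for HOXC6 (3.52 and 3.29 FPKM) to -0.66 for HOXD8 (19.5 and 12.2 FPKM).

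Several stress and early response genes were higher, while the cell cycle was level. AP-1 and immediate early genes were 2-fold higher in 6 of 16 and lower in 1, with JUN at 3.02 FPKM in mock cells and 6.97 FPKM in PcTF cells. The lower gene, the phosphatase DUSP1, had 1.9 FPKM in mock cells and 0.859 FPKM in PcTF cells. It rested on about 18 and 10 reads, with an interval of -2.42 to 0.05 that includes no difference. Among ATF4 and unfolded protein response genes 5 of 23 were higher, CEBPB (0.505 and 2.22 FPKM), DDIT4 (2.98 and 8.79 FPKM), GDF15 (7.15 and 19.9 FPKM), DDIT3 (4.38 and 9.8 FPKM) and SESN2 (1.1 and 2.4 FPKM). The chaperone HSPA5, the sentinel of endoplasmic reticulum stress, was level with 222 and 226 FPKM, and no heat shock gene of 10 was called. Metallothionein MT2A had 18.8 FPKM in mock cells and 81.4 FPKM in PcTF cells, MT1E 5.09 FPKM in mock cells and 11.9 FPKM in PcTF cells and MT1X 6.73 FPKM in mock cells and 7.81 FPKM in PcTF cells, while the NRF2 targets NQO1 (10.7 and 7.32 FPKM) and GCLM (5.43 and 7.35 FPKM) stayed within 2-fold. NAMPT, which makes NAD and is a cytokine target gene, had 15.3 FPKM in mock cells and 44 FPKM in PcTF cells. The kynurenine enzyme IDO1, a classic target of interferon gamma, had 0 and 0.181 FPKM.

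Of 22 p53 targets 2 were 2-fold higher, FDXR (0.573 and 1.3 FPKM) and SESN2, and the median was 0.44. FDXR rested on about 5 and 14 reads, with an interval of -0.37 to 3.01 that includes no difference. CDKN1A had 51.5 and 70 FPKM and MDM2 56.6 and 85.5 FPKM. Mitosis and replication genes gave 0 higher and 0 lower of 45, with MKI67 at 65.5 and 89.1 FPKM and PCNA at 75.4 and 103 FPKM. The housekeeping lists were equally quiet. There were 0 called of 25 cholesterol genes, 0 of 31 constitutive proteasome genes, 1 higher of 38 respiratory chain genes (COX5B, 12.1 and 25.4 FPKM) and 1 higher of 25 glycolysis and hypoxia genes (ADM, 2.16 and 5.9 FPKM). Of 74 ribosomal protein genes, 1 was higher (RPS27, listed at 0 in mock and 2.12 FPKM with PcTF, about 2 reads) and 1 was lower (RPS28, 7.55 and 2.63 FPKM). Both genes have many processed copies, which makes their values uncertain.

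Secreted growth factors and adhesion genes were divided in direction. IGFBP3, which binds insulin-like growth factors, had 3.27 FPKM in mock cells and 24 FPKM in PcTF cells (interval 2.41 to 3.38), whereas its relative IGFBP5 had 47.4 FPKM in mock cells and 21.4 FPKM in PcTF cells (interval -1.27 to -1.02). PDGFA had 4.02 FPKM in mock cells and 9.41 FPKM in PcTF cells and PDGFD 41.6 FPKM in mock cells and 16.5 FPKM in PcTF cells. VEGFC (17.1 and 34.8 FPKM) and HBEGF (3.04 and 6.24 FPKM) were just 2-fold higher. Of the WNT list 0 of 11 were higher and 2 lower. DKK2, a WNT antagonist, had 184 FPKM in mock cells and 67.6 FPKM in PcTF cells, about 3297 and 1491 reads, and WNT5B 3.14 FPKM in mock cells and 1.11 FPKM in PcTF cells, while DKK1 had 83.5 and 104 FPKM. In the TGF-beta list the BMP antagonist GREM1 had 49 FPKM in mock cells and 122 FPKM in PcTF cells, BMP2 0.783 FPKM in mock cells and 1.96 FPKM in PcTF cells and the activin antagonist FST 12.8 FPKM in mock cells and 27.3 FPKM in PcTF cells, and TGFBI had 937 FPKM in mock cells and 516 FPKM in PcTF cells. The cell adhesion genes CDH13 (13.8 and 35.3 FPKM), ITGA3 (17 and 40.5 FPKM) and MCAM (0.799 and 2.0 FPKM) were higher, and CDH11 was lower with 111 FPKM in mock cells and 50.2 FPKM in PcTF cells (interval -1.22 to -1.06).

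**Figure D4:**
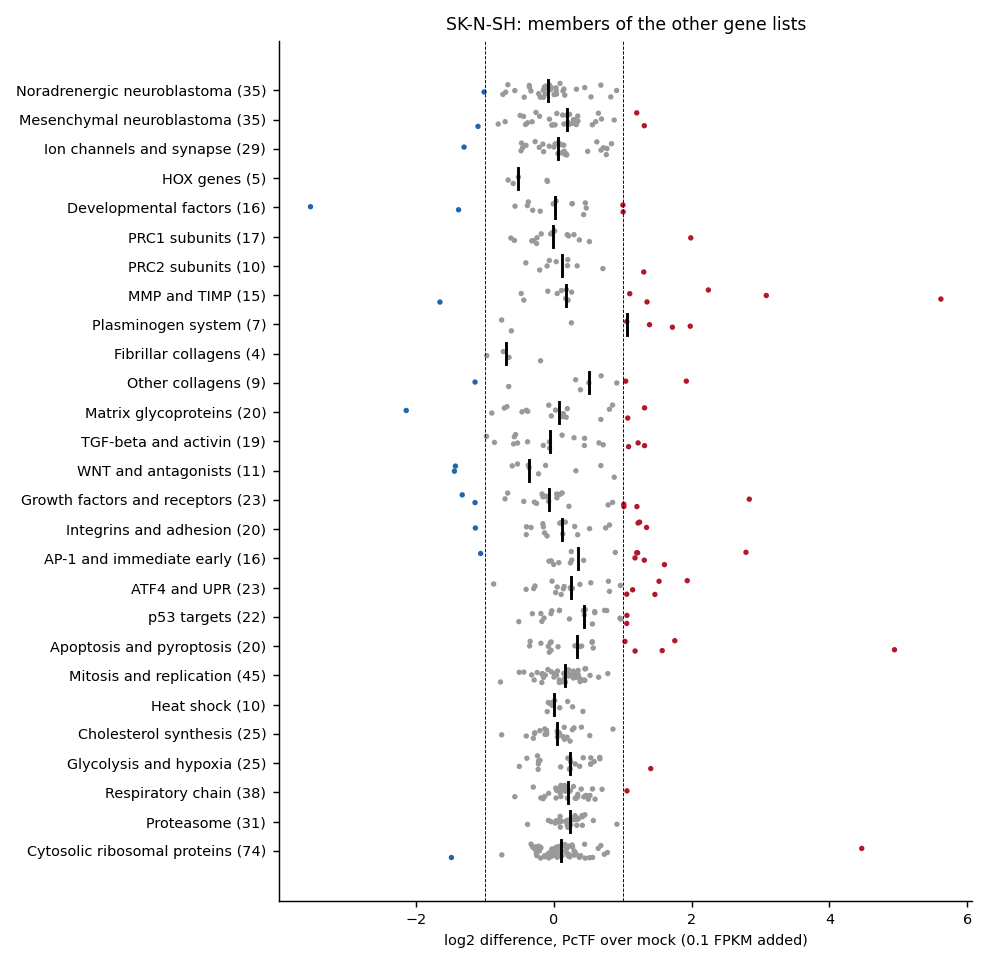
Log2 differences of PcTF over mock (0.1 FPKM added) for members of 27 further lists with 1 FPKM or more in SK-N-SH, the number of members in brackets, with a black bar at the list median and dashed lines at 2-fold. Points past 2-fold are red (higher) or blue (lower), while mitosis, heat shock and proteasome members stay within the lines.

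By the rule that names the 15 highest and 15 lowest genes with 5 FPKM or more and a locus of 300 bp or more, every gene was a small nucleolar RNA or a microRNA. Their deposited locus is that of the host gene, so the length rule did not remove them. All 15 highest were listed at 0 in mock, for example SNORD47 with 1894 FPKM in PcTF, and all 15 lowest at 0 with PcTF, for example MIR3650 with 2273 FPKM in mock. Of 121 small nucleolar RNA genes 58 were 2-fold higher and 38 lower, and of 89 microRNA genes 40 and 36. Called genes thus went in both directions, and their values are not read further. Histone genes, whose transcripts are short and mostly not polyadenylated, were higher in 10 and lower in 3 of 44. Most of these calls rest on few reads. Over all 44 members, called or not, the counting interval lay above 0 for 2 and below 0 for 1. Among the called genes it excluded 0 only for HIST1H2AK, which was higher (3.01 and 11 FPKM, about 5 and 21 reads).

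Some longer genes outside the lists had large differences and were chosen after their values were seen. BMPER, a secreted modulator of BMP signalling, had 1.24 FPKM in mock cells and 19.6 FPKM in PcTF cells (about 33 and 637 reads, interval 3.47 to 4.52). CDCP1, a surface glycoprotein, had 1.96 FPKM in mock cells and 26.4 FPKM in PcTF cells, TMEM158 4.18 FPKM in mock cells and 51.1 FPKM in PcTF cells and the secreted hormone STC1 0.681 FPKM in mock cells and 7.53 FPKM in PcTF cells. PML and SP100, components of nuclear bodies, had 2.65 and 8.77 FPKM and 26.1 and 68 FPKM, the RNA helicase DDX60 4.78 and 29.1 FPKM and the scramblase PLSCR1 5.66 and 23.5 FPKM. FTH1, the ferritin heavy chain, had 102 FPKM in mock cells and 291 FPKM in PcTF cells and was the other higher gene above 100 FPKM in mock. Outside the small RNA genes, the most negative differences included those of MUTED-TXNDC5 (7.53 and 0.0016 FPKM), LOC100129216 (5.52 and 0 FPKM), DEFB124 (5.26 and 0 FPKM, about 16 and 0 reads), URGCP-MRPS24 (5.09 and 0 FPKM) and MUTED (5.05 and 0.0471 FPKM), and MUTED-TXNDC5, URGCP-MRPS24 and MUTED share exons with a neighbouring gene, which makes them uncertain. Further up, IL13RA2, a decoy receptor of interleukin 13, had 19.1 FPKM in mock cells and 1.2 FPKM in PcTF cells (about 113 and 9 reads, interval -5.11 to -2.97). ASPN, a small leucine-rich proteoglycan, had 6.54 FPKM in mock cells and 0.27 FPKM in PcTF cells (about 77 and 4 reads). FIGF, the growth factor VEGF-D, had 29.9 FPKM in mock cells and 5.65 FPKM in PcTF cells (interval -2.82 to -2.03), SULT1E1, estrogen sulfotransferase, 33.8 FPKM in mock cells and 7.84 FPKM in PcTF cells, and the imprinted genes MEST and NNAT 14.2 and 3.95 FPKM and 10.4 and 2.46 FPKM. The chemokine CXCL12 was also lower, with 11.4 FPKM in mock cells and 4.75 FPKM in PcTF cells, unlike the chemokines above. MBNL2, an RNA-binding splicing regulator, had 238 FPKM in mock cells and 101 FPKM in PcTF cells (interval -1.31 to -1.18).

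Neighbouring genes that were all 2-fold higher occurred in 8 runs of 3 or more consecutive longer genes, and no such run was 2-fold lower. Coordinates are hg19 as deposited. The runs include IFIT2, IFIT3, IFIT1 and IFIT5 (chr10:91061706-91180759), OAS1, OAS3 and OAS2 (chr12:113344739-113449528), DTX3L, PARP9 and PARP14 (chr3:122246760-122449687), IL8, CXCL6 and CXCL2 (chr4:74606223-74964997) and MMP1, MMP3 and MMP12 (chr11:102654407-102745764). A further run joins CSF2 to P4HA2, PDLIM4 and SLC22A4 (chr5:131409485-131731306). Consecutive here means among genes with 1 FPKM or more, and neighbours are not independent where they overlap.

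The same plasmid was also delivered to U-2 OS osteosarcoma cells, collected after 96 h, and K562 leukaemia cells, collected after 48 h, each with its own mock library. The background was 12.1% higher and 5.57% lower in U-2 OS and 28.6% and 11.6% in K562. The version of the deposited K562 table is uncertain, which bears on its values. Of the 591 longer genes 2-fold higher in SK-N-SH, 440 had 1 FPKM or more in U-2 OS, where 187 (42.5%) were 2-fold higher and 26 lower. In K562 the figures were 359, 115 (32%) and 68. Of the 236 lower genes, 149 were measured in U-2 OS, with 35 (23.5%) 2-fold lower and 29 higher, and 104 in K562, with 23 (22.1%) lower and 49 higher.

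OAS and IFIT genes were 2-fold higher in 7 of 7 in SK-N-SH, 9 of 10 in U-2 OS and 1 of 3 in K562, and interleukins and colony-stimulating factors in 8 of 10, 9 of 12 and 1 of 5. In K562, 1 of 3 OAS and IFIT genes and 3 of 5 interleukins and colony-stimulating factors were 2-fold lower, against 11.6% of all genes. Restriction factors gave 4 higher and 4 lower of 13 in that line. Some lists stood above the K562 background, among them MX and IFI genes higher in 6 of 11 in K562 (13 of 14 in U-2 OS) and acute phase and complement genes in 4 of 6. So did T-cell chemokines with 2 of 3, the TNF superfamily with 4 of 9 and NF-kB feedback genes with 4 of 10. Lower calls in these 5 lists were 1, 0, 1, 2 and 2 in that order. Others stood below it, with 0 of 10 IRF and STAT factors and 2 of 8 nucleic acid sensors higher. GBP and PARP genes gave 1 of 5 and class I presentation genes 1 of 8. Starting levels differed. OAS2 had 12.8 and 286 FPKM in U-2 OS mock and PcTF, XAF1 37.5 and 169 FPKM and IFI44 74.2 and 236 FPKM, against 0.158, 0.172 and 5.69 FPKM in SK-N-SH mock cells. MX1, with 0.625 and 32.9 FPKM in SK-N-SH, stayed below 1 FPKM in U-2 OS (0.333 and 0.379 FPKM). MMP1 (0 and 0.961 FPKM), CXCL2 (0 and 0 FPKM), CCL7 (0 and 0 FPKM) and IGFBP3 (0 and 0 FPKM) were likewise at or below 1 FPKM in U-2 OS. CSF2 was listed at 0 in the mock library of both lines and had 18 FPKM with PcTF in SK-N-SH (0 and 25.3 FPKM in U-2 OS). Whether a gene differed between lines was not tested, as each has 1 library a side.

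Several lists with few 2-fold differences in SK-N-SH had more in the other lines, read against their higher backgrounds. Respiratory chain genes were 2-fold higher in 1 of 38 in SK-N-SH, 12 of 38 in U-2 OS and 4 of 38 in K562. Cholesterol genes gave 0 of 25, 6 of 25 and 7 of 28, and ribosomal protein genes 1 of 74, 21 of 76 and 10 of 76. For all 3 lists the share was above 12.1% in U-2 OS and below 28.6% in K562. Ribosomal protein genes were 2-fold lower in 1 of 74 in SK-N-SH, 1 of 76 in U-2 OS and 22 of 76 in K562. ATF4 and unfolded protein response genes were lower in 13 of 23 in K562 and in 0 of 23 in SK-N-SH. The panel gene CASZ1 had 0.0498 and 0.236 FPKM in SK-N-SH, 0.265 and 0.722 FPKM in U-2 OS and 0 and 0.366 FPKM in K562. CBX8 had 0.61 and 6.43 FPKM in U-2 OS and 1.59 and 14.3 FPKM in K562, of the same order as in SK-N-SH.

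**Figure D5:**
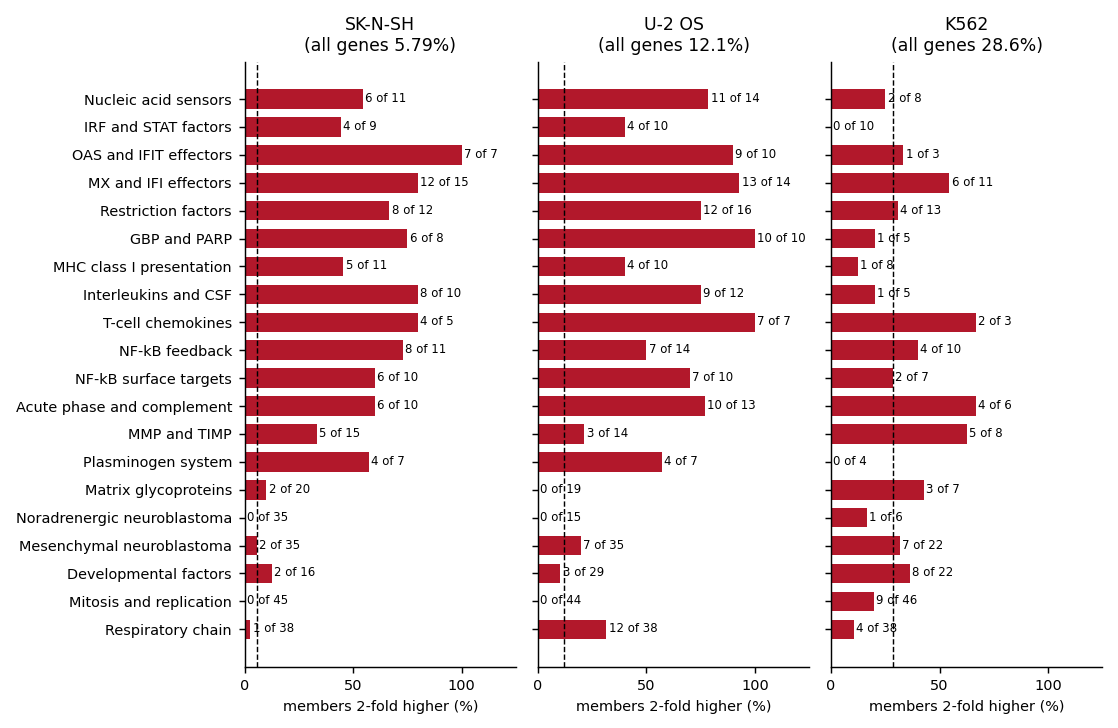
Bars give the percentage of list members with 1 FPKM or more that were 2-fold higher with PcTF than in the mock library of the same line, with the counts beside them and a dashed line at the percentage over all genes. OAS, IFIT, MX and IFI lists stand far above the line in SK-N-SH and also in U-2 OS, where mitosis and replication genes stay at 0.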

How the data were processed

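RNA-seq libraries of PcTF-transfected and mock-transfected SK-N-SH cells were analysed (1 library per group), with the corresponding libraries of U-2 OS and K562 for comparison. According to the study's methods and the submitters' processing notes, amplified cDNA was sequenced as single-end reads, which were checked with FastQC and mapped with TopHat2 2.1.0, which runs Bowtie2, on the hg19 build, and Cuffdiff gave gene levels. The FPKM values were deposited by the authors, normalised to library depth and transcript length. The deposited tables also hold the authors' log2 fold changes, test statistics, p-values and q-values, which were not used. A table that pools several U-2 OS libraries was not used here.

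From the FPKM, differences were computed with 0.1 FPKM added to both values, over genes with 1 FPKM or more in either library. Estimates marked as failed in the table (5 in SK-N-SH) were left out. Reads per gene were estimated from the value of 1 read in single-exon genes (low values whole within 3%: 100% of 84 in mock, 98.9% of 90 with PcTF), assuming fragments of 200 bp (SD 80 bp) and the canonical transcript of GENCODE on GRCh37, found for 94.2% of the genes. They sum to 5.13e+06 and 6.37e+06. Isoform mixtures make them approximate, and PCR copies and cDNA amplification are not covered by the intervals. Where the GENCODE transcript is longer than the authors' gene model, as for SOD2 and CBX8, the reads are too high and the interval too narrow. Samples were grouped by GEO labels. No test was possible. Scripts used Python 3.11.15, pandas and SciPy, and the depth search and intervals were tested on simulated data.

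The members and gene lists were chosen with earlier results of these data known. Named genes are the study's panel and control genes with CBX8, the 5 most different members per list with its ligands, receptors and factors, the 15 highest and lowest genes, and defining markers at 0. Genes named beyond this rule, such as level members given for contrast, were chosen after their values were seen. Alternatives were pseudocounts, filters, centring and the removal of small RNA genes, loci under 300 bp or genes on other contigs. Some genes of the lists are not reported here by name, though they stay in the counts.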

Additional observations from a re-analysis of the deposited data

Results flagged for a closer look

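In the genes that follow, each with 10 or more estimated reads in its higher SK-N-SH library, the difference was 2-fold or more in opposite directions in SK-N-SH cells and in U-2 OS cells, each from 1 library a side, and the contrast between the lines was not tested. PTGS2, the inducible cyclooxygenase, had a log2 difference of 1.34 in SK-N-SH (18 and 45.7 FPKM in mock and PcTF) and -2.05 in U-2 OS (35.4 and 8.48 FPKM). LOX, a collagen crosslinking enzyme, had 1.07 (24.9 and 52.5 FPKM) and -1.96 (72.6 and 18.6 FPKM). The activin antagonist FST had 1.09 (12.8 and 27.3 FPKM) and -1.98 (37.6 and 9.44 FPKM). TAGLN, an actin-binding protein of smooth muscle, had -1.10 (3.62 and 1.64 FPKM) and 1.00 (2.14 and 4.39 FPKM). STC1, a secreted glycoprotein hormone that is in none of the lists, had 3.29 (0.681 and 7.53 FPKM) and -1.26 (8.97 and 3.68 FPKM). The ribosomal protein gene RPS27 had 0 and 2.12 FPKM in the SK-N-SH libraries against 1.39 and 0 FPKM in those of U-2 OS, and about 2 reads in the higher SK-N-SH library are too few for a fold.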

How the results depend on the processing

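No paired analysis was possible because each group has 1 library. The count of 692 higher and 319 lower genes was 396 and 178 with 1 FPKM added, 1672 and 944 without a filter, 320 and 148 at 5 FPKM or more, and 434 and 158 where the counting interval also excluded equal levels, an alternative added after the data were seen that covers the genes with a transcript length. Leaving out small RNA genes (591 and 236, also added later), loci under 300 bp, adding 0.01 FPKM or centring moved neither count by over 1.5 times. Interferon lists had 39 to 58 higher genes under these alternatives (51 as given), 50 without genes on other contigs, also added later, and 1 lower gene appeared without a filter. Inflammatory calls were 20 higher at 5 FPKM or more (43 as given). With 1 FPKM added, cell cycle and stress lists had 13 higher and 1 lower (from 20 and 2), growth factor and adhesion lists 6 higher (from 10), neuroblastoma state lists 1 higher and 2 lower (from 2 and 5) and polycomb and developmental lists 3 higher (from 5), as they also had when centred (3). Without a filter, neuroblastoma state lists had 5 higher, polycomb and developmental lists 20 higher and 8 lower, cell cycle and stress lists 5 lower, growth factor and adhesion lists 17 higher, and housekeeping lists 5 higher and 2 lower. At 5 FPKM or more, neuroblastoma state lists had 1 higher and 1 lower, polycomb and developmental lists 2 higher and 0 lower, and cell cycle and stress lists 9 higher and 0 lower. With the counting interval, cell cycle and stress lists had 1 lower. Fewer or more genes past the filter account for part of these by construction, and the cause was otherwise not tested. The 271 single genes give no check on direction. Neither another pseudocount nor the small shift of centring can reverse the sign of a 2-fold difference.

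Levels of about 1 FPKM rest on few reads at this depth, and a zero does not show absence.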

Other observations

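Among the clustered protocadherins, adhesion proteins whose isoforms share their last exons, 4 of 34 were 2-fold higher and 1 lower in SK-N-SH. PCDHGA4 had 1.65 and 4.37 FPKM and PCDHGC5 0.474 and 2.09 FPKM, and the shared exons make single members uncertain. Of 437 zinc finger genes named ZNF, 6 were 2-fold higher and 3 lower, with a median of 0.02, well below the 5.79% and 2.67% over all genes. Of 391 olfactory receptor genes 1 reached 1 FPKM, OR10AD1 (0.256 and 1.25 FPKM). Epithelial genes stayed low, with EPCAM at 1.27 and 0.723 FPKM and KRT18 at 3.95 and 5.4 FPKM, and RUNX2 was the 1 osteoblast gene past 1 FPKM (3.9 and 3.34 FPKM). The erythroid list held HBE1 (2.51 and 2.3 FPKM) and EPOR (4.64 and 3.98 FPKM) above 1 FPKM, neither of them 2-fold different. CD68, a lysosomal glycoprotein that macrophages express strongly, was the 1 haematopoietic list member past 1 FPKM, with 2.33 FPKM in mock cells and 7.38 FPKM in PcTF cells, while LYZ, TYROBP and ITGAM were listed at 0 in both libraries.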
